A study of Arabidopsis thaliana with 10 samples.

Results

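The transcriptome of an Arabidopsis thaliana line called RiD-BRI1/BAK1, here RiD, was compared with that of its wild-type accession Col-0 when neither had been given a ligand. The comparison used the 2 RiD mock and the 2 Col-0 mock libraries, chosen by their genotype and treatment labels, which are 4 of the 10 libraries of the series. It addresses how the line that carries the construct differs from Col-0 without rapamycin or brassinolide. The construct and any other difference between the lines cannot be told apart. The other 6 libraries came from Col-0 with 100 nM rapamycin and from RiD with 100 nM rapamycin or 100 nM brassinolide, 2 of each. They entered the model to estimate the spread and are set beside the mock values where stated. Seedlings of all groups were grown in darkness for 5 days on 2 µM of a compound labelled PPZ, and RNA was taken from whole seedlings. The promoters that drive the construct, the number of independent transformants and the number of seedlings pooled per library are not stated in the sources used.

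BRI1 is the receptor kinase at the cell surface that binds brassinosteroids, the steroid hormones that drive cell elongation in plants, and BAK1 is a co-receptor kinase that joins BRI1 once the hormone is bound. The signal passes through the kinase BIN2 to the transcription factors BZR1 and BES1, which switch growth genes on and switch the hormone's own synthesis genes, such as DWF4 and CPD, off. BAK1 and other members of its SERK family also serve immune receptors.

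The values are the deposited normalized counts, summed over the transcripts of each locus. The 10 libraries summed to 23244655 to 26987555 normalized counts. The value of a single read in each column put the depth at about 18.4 to 19.9 M reads where the library number was 1 and 29.2 to 33.9 M where it was 2, so that 3 reads were worth 2.19 to 4.18 normalized counts. Libraries with the same number deviated together from their group means, with correlations of 0.320 to 0.511 over the tested loci in all 10 pairs of groups. The replicate number was a term of the model, and every call between RiD mock and Col-0 mock depends on it. In whole seedlings, fewer cells of a type and less transcript per cell cannot be told apart. Between 22026 and 22767 loci were above 0 in a library. With 2 libraries against 2, an exact permutation test of a single locus cannot go below p = 0.333, and the p-values below come from a limma model over all loci.

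The genes that give the line its name had more transcript in RiD mock. BAK1 (AT4G33430) stood at 2104 and 1899 normalized counts in Col-0 mock and 5116 and 4908 in RiD mock. BRI1 (AT4G39400) stood at 3420.1 and 5625 normalized counts in Col-0 mock and 8509 and 12206 in RiD mock. For both genes the lines did not overlap within the mock libraries, and BRI1 was higher in the library numbered 2 of each line. The log2 difference, RiD minus Col-0, was 1.33 for BAK1 (SE 0.085, adjusted p = 2.32e-06) and 1.22 for BRI1 (SE 0.11, adjusted p = 6.2e-05). With the number left out of the model BAK1 had an adjusted p of 0.102 and BRI1 of 1, at unchanged log2 differences.

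The ligand-treated libraries held the same order. BAK1 had 2021 and 1972 normalized counts in Col-0 rapamycin, 5808 and 5979.7 in RiD rapamycin and 5433 and 5175 in RiD brassinolide. BRI1 had 3962 and 4584, 7122 and 10379.8 and 7473 and 9621 in the same groups. Each gene was thus higher in all 6 RiD libraries than in all 4 Col-0 libraries, as were 2.56% of all tested loci. A 2-sided exact permutation test over 210 assignments of the line labels gave p = 0.00476 for each gene, the lowest value it can reach. It includes the ligand-treated libraries and treats libraries of unlike treatment and number as exchangeable. Nearly all BAK1 counts were on its first transcript, whose log2 difference was 1.33 (SE 0.070, adjusted p = 0.00441 in a fit over 29542 transcripts). The single BRI1 transcript had an adjusted p of 0.0830 in that fit, which called only 6 transcripts (3 higher and 3 lower). Whether reads from an introduced sequence are among these counts cannot be told from the table.

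**Figure D1:**
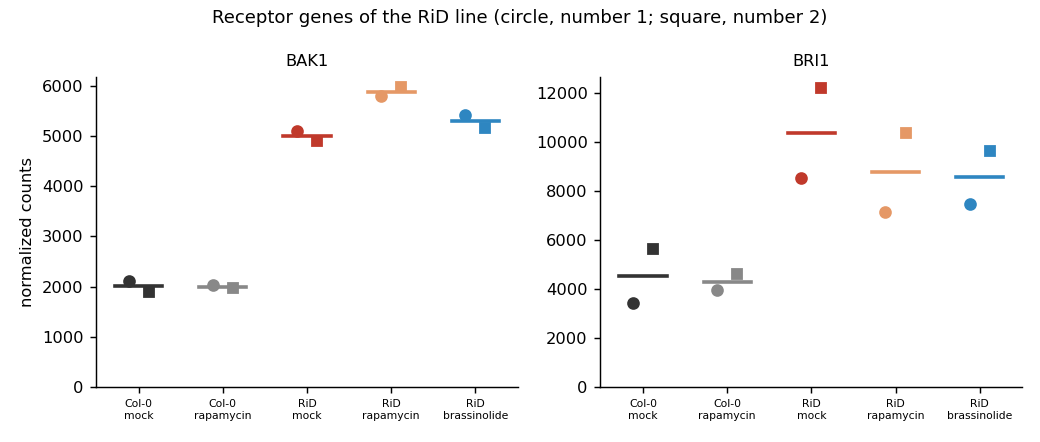
Normalized counts (linear axis from 0) of BAK1 and BRI1 in each of the 10 libraries, by group; circles are libraries numbered 1, squares those numbered 2, bars the mean of 2. All RiD libraries lie above all Col-0 libraries for both genes, from 4908 upward against at most 2104 for BAK1 and from 7122 upward against at most 5625 for BRI1.

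The other members of the receptor and co-receptor list did not pass the test. Of 13 genes, 2 were higher, none was lower and 11 were not called, beside 0.356% of all tested loci. The BRI1 homologues BRL1, BRL2 and BRL3 differed by 0.078 (95% interval -0.40 to 0.55), 0.02 (-0.22 to 0.26) and 0.16 (-0.20 to 0.53) on the log2 scale. The BAK1 relatives SERK1, SERK2, BKK1 and SERK5 differed by -0.29, 0.073, -0.03 and 0.072. BKI1, the inhibitor that holds BRI1 inactive, differed by -0.24 (-0.51 to 0.039), and the receptor-like kinases BIR1, BIR2 and BIR3, which interact with BAK1, by 0.089, 0.17 and 0.045. Among the tested members other than BAK1 and BRI1, no interval reached the size of the difference of either.

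Over the whole transcriptome few loci were called between the lines, and their number moved widely with the settings. Of 23285 loci tested, 83 were called at an adjusted p under 0.05, which is 0.356%: 53 were higher in RiD mock (0.228%) and 30 lower (0.129%). The median log2 difference of all tested loci was 0.0087. At least 2-fold differences were seen for 24 of the higher and 11 of the lower loci. Every one of the 83 had the same sign in both number pairs, but the same values made the calls, so this adds no support. The same holds below wherever the mock libraries of a called locus are said not to overlap. Without the number in the model limma called 0 loci, with 695 (2.98%) at an unadjusted p under 0.05 and a lowest adjusted p of 0.102. A fit of the 4 mock libraries alone also called 0, with 1 residual degree of freedom with the number and 2 without it. With all Col-0 libraries as control 201 were called.

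**Figure D2:**
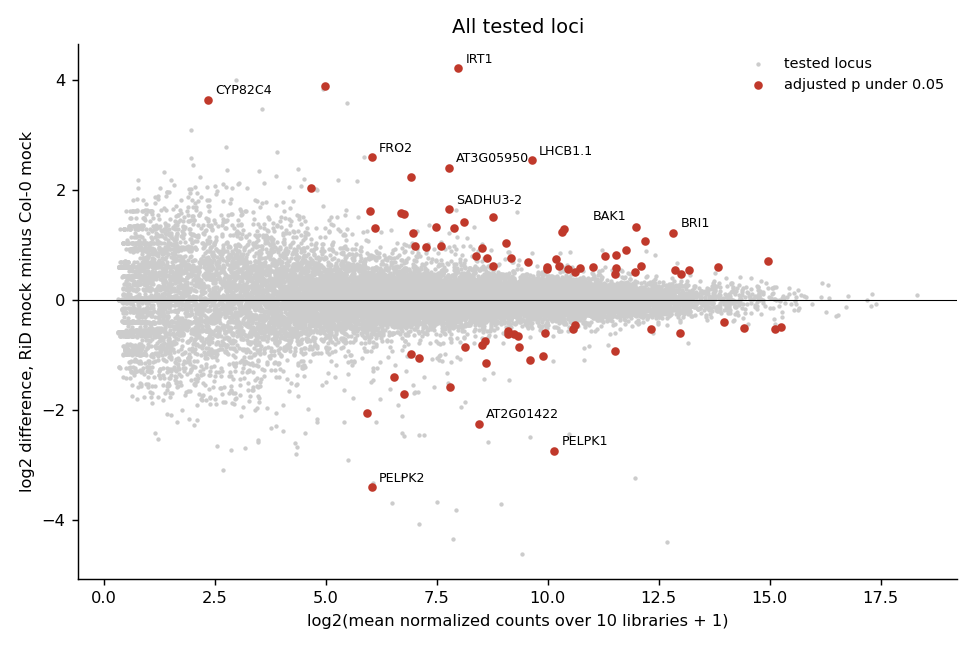
The log2 difference of RiD mock minus Col-0 mock against the log2 mean level over the 10 libraries (normalized counts plus 1) for the 23285 tested loci; red points are the 83 called loci. The 53 red points above 0 include IRT1 at 4.21 and the 30 below 0 include PELPK2 at -3.41.

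None of 10 brassinosteroid synthesis genes was called, with log2 differences from -0.090 to 0.15 and a median of -0.027. DWF4, the early hydroxylase, had 3293 and 2705 normalized counts in Col-0 mock and 2903 and 2903 in RiD mock, and the 95% interval of its log2 difference was -0.29 to 0.21. CPD, another hydroxylase of the pathway, had 14540.2 and 16889 normalized counts in Col-0 mock and 15771 and 18307 in RiD mock (interval -0.078 to 0.31). BR6OX2, which makes brassinolide, had 8197 and 6802 normalized counts in Col-0 mock and 7004 and 7924 in RiD mock (-0.32 to 0.31). Within the pairs numbered 1 and 2 the log2 difference was 0.12 and 0.12 for CPD, while DWF4 (-0.18 and 0.10) and BR6OX2 (-0.23 and 0.22) took opposite signs. DWF5, a sterol reductase with the largest difference of the list, differed by 0.15 (adjusted p = 0.55). In RiD rapamycin against Col-0 rapamycin the log2 difference was -6.83 for DWF4, -3.69 for CPD and -8.21 for BR6OX2. It was -0.18 for DET2 (adjusted p = 0.303) and 0.26 for DWF5 (adjusted p = 0.0278) there. The mock values of DWF4, CPD and BR6OX2 were thus read at levels far above those of RiD rapamycin.

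Other steps of the pathway also gave few calls. None of 7 genes of brassinosteroid inactivation passed: BIA1, an acyltransferase, came closest with 151 and 172 normalized counts in Col-0 mock and 264 and 250.4 in RiD mock (log2 difference 0.67, SE 0.15, adjusted p = 0.0771). None of 19 genes of the cytoplasmic kinases and the BZR1 family passed, and the median was 0.079. The largest difference there, 0.42 for the kinase CDG1, came from 0 and 0 normalized counts against 0 and 0.801, within the value of 3 reads. Among 13 tested growth regulators downstream of brassinosteroids, 1 was lower: BEE1, a bHLH factor that promotes elongation, had 472 and 429.6 normalized counts in Col-0 mock and 325 and 264 in RiD mock (log2 difference -0.62, SE 0.12, adjusted p = 0.034). The other 12 were not called, beside 0.129% of all tested loci called lower. With ligand BEE1 took the other direction. It was higher by 1.70 in RiD rapamycin (adjusted p = 1.97e-08) and by 0.46 in RiD brassinolide (adjusted p = 0.00637), each against Col-0 rapamycin.

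Genes of iron uptake were among the loci with the largest increases. On the log2(value + 1) scale IRT1 was first, while by the ratio of the mock means AT2G44220 (30.7) and CYP82C4 (26.1), both near 0 in Col-0 mock, were above IRT1 (19.9). IRT1 (AT4G19690), the main iron transporter of the root surface, had 23.8 and 19.8 normalized counts in Col-0 mock and 321 and 546 in RiD mock (log2 difference 4.21, SE 0.42, adjusted p = 0.00747). FRO2 (AT1G01580), the reductase that turns ferric into ferrous iron ahead of IRT1, had 17.4 and 22.0 normalized counts in Col-0 mock and 87.8 and 172 in RiD mock (log2 difference 2.59, SE 0.28, adjusted p = 0.000349). Both RiD mock libraries lay several-fold above both Col-0 mock libraries for each gene, with the library numbered 2 the higher. The same values made the calls. In the fit over single transcripts no IRT1 transcript was called (adjusted p = 0.109 for the one with most of the counts and 0.583 for the other). In the remaining libraries IRT1 had 4.03 and 13.8 in Col-0 rapamycin, 481 and 408 in RiD rapamycin and 353 and 345 in RiD brassinolide, so the lines did not overlap there either. FRO2 had 16.1 and 17.5, 73.8 and 87.2 and 55.4 and 97.4 in those groups, again without overlap. Over all tested loci 2.56% had all 6 RiD libraries above all 4 Col-0 ones.

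Other metal genes moved as well. CYP82C4, an iron-deficiency-induced hydroxylase of coumarin synthesis, had 0 and 1.47 normalized counts in Col-0 mock and 14.2 and 24.0 in RiD mock (log2 difference 3.64, SE 0.65, adjusted p = 0.0271). Its remaining 6 libraries lay between 0 and 0.774, so that RiD mock stood alone, and the size of the difference depends on the added constant. COPT2, a copper transporter, had 8.96 and 5.13 normalized counts in Col-0 mock and 33.5 and 28.7 in RiD mock (log2 difference 2.03, SE 0.36, adjusted p = 0.0262), while Col-0 rapamycin held 21.4 and 15.1, between the mock groups. MTPA2, a metal tolerance protein that stores zinc in the vacuole, had 86.0 and 78.4 normalized counts in Col-0 mock and 163 and 160.1 in RiD mock (log2 difference 0.97, SE 0.18, adjusted p = 0.034).

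In the other direction, FER4 and FSD1 were lower. FER4, a ferritin that stores iron in plastids and mitochondria, had 1944 and 1949 normalized counts in Col-0 mock and 1399 and 1440.2 in RiD mock (log2 difference -0.46, SE 0.089, adjusted p = 0.0445), and it was also lower in all 4 ligand-treated RiD libraries, at 1280 to 1436, than in the Col-0 ones. FSD1, an iron superoxide dismutase of the chloroplast, had 1336 and 1147 normalized counts in Col-0 mock and 631 and 589.9 in RiD mock (log2 difference -1.02, SE 0.14, adjusted p = 0.00365). In RiD brassinolide FSD1 was at 1160.4 and 1034, within the range of the Col-0 libraries. Thus FER4 was lower in all 6 RiD libraries than in all 4 Col-0 ones, as were 2.25% of tested loci, while for FSD1 the lines overlapped.

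The regulators of iron uptake did not pass the test. FIT1, the bHLH factor that activates IRT1 and FRO2, had 166 and 168 normalized counts in Col-0 mock and 201 and 314 in RiD mock (log2 difference 0.59, SE 0.17, adjusted p = 0.211), and both RiD mock libraries were above both Col-0 ones. Its partner factors BHLH39 and BHLH101 differed by 0.77 (adjusted p = 0.282) and 1.50 (adjusted p = 0.122), BHLH38 by 0.74, and the iron-signalling peptides IMA1 and IMA2 by 0.45 and 1.03. FER1, another ferritin, differed by -0.17 (95% interval -0.38 to 0.029). Of 15 tested members of the phosphate and iron list, 2 were higher (0.228% of all loci) and 1 lower (0.129%), with a median of 0.45. CYP82C4, COPT2, MTPA2 and FSD1 are not on that list, were grouped with it after their values were seen, and give no support to the list's count.

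**Figure D3:**
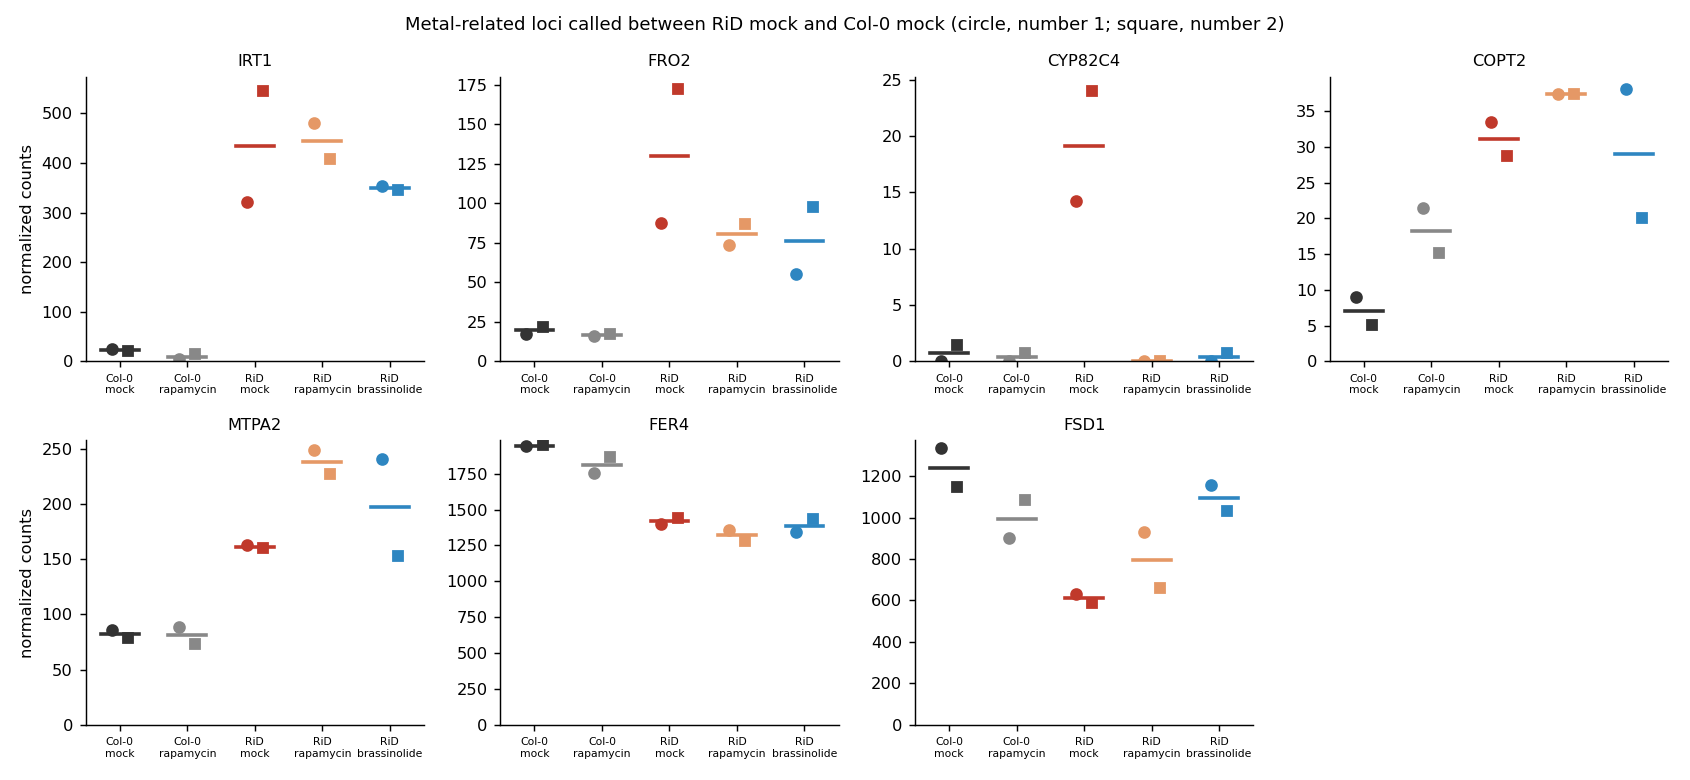
Normalized counts (linear axes from 0) of 7 metal-related loci called between the mock groups, in each of the 10 libraries; circles are libraries numbered 1, squares those numbered 2, bars the mean of 2. IRT1, FRO2 and MTPA2 are higher and FER4 lower in all RiD libraries than in all Col-0 libraries, while CYP82C4 is at most 1.47 outside RiD mock.

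Several genes of the light-harvesting antenna, the chlorophyll-binding proteins of photosystem II, were higher in RiD mock. LHCB2.1 had 4367 and 2891 normalized counts in Col-0 mock and 9670.5 and 5707 in RiD mock (log2 difference 1.06, SE 0.11, adjusted p = 0.000313). Its close copy LHCB2.2 had 3492 and 2562 normalized counts in Col-0 mock and 6945 and 4553 in RiD mock (log2 difference 0.91, SE 0.12, adjusted p = 0.00414), and how reads were shared between the copies is not known. LHCB3 had 9418 and 7006 normalized counts in Col-0 mock and 14735 and 9384 in RiD mock (log2 difference 0.53, SE 0.10, adjusted p = 0.0351). In each line the library numbered 1 was the higher, and within a number RiD mock always exceeded Col-0 mock. Of 22 nuclear photosynthesis genes 4 were higher, none was lower and 18 were not called, beside 0.228% of all loci higher and 0.129% lower, with a median of 0.11.

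The fourth was LHCB1.1 (CAB2, AT1G29920), with 561 and 262 normalized counts in Col-0 mock and 3080.1 and 1619.8 in RiD mock (log2 difference 2.54, SE 0.11, adjusted p = 3.88e-08). It is a near-identical copy of LHCB1.3, and its value is uncertain because the deposited counts may split reads between the copies. Counts were summed over 3 LHCB1 copies, which need not be all of them. LHCB1.1 made up 0.0881 to 0.117% of that sum in Col-0 mock and 0.544 to 0.559% in RiD mock. The sum itself was 480137 and 297872 in Col-0 mock and 566027 and 290004 in RiD mock, and overlapped.

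Further light-linked genes were called. ELIP1, an early light-induced protein that binds chlorophyll in stressed plastids, had 74.6 and 35.2 normalized counts in Col-0 mock and 224 and 106 in RiD mock (log2 difference 1.57, SE 0.28, adjusted p = 0.0312), and was the only called member of 19 on the list of dark growth and light signalling. Its range in Col-0 mock ran up to 74.6 and that of RiD mock began at 106. Over all tested loci 0.228% were called higher. CH1, which makes chlorophyll b, had 1196 and 1294 normalized counts in Col-0 mock and 1709.7 and 1940.3 in RiD mock (log2 difference 0.55, SE 0.091, adjusted p = 0.016). LHB1B1, another antenna gene that was not in the LHCB1 sum, had 3314 and 1710.4 normalized counts in Col-0 mock and 5609.8 and 3127 in RiD mock (log2 difference 0.81, SE 0.11, adjusted p = 0.00326). The last 2 were picked after their values were seen.

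In the ligand-treated libraries the antenna genes were lower, higher or not called. With rapamycin, LHCB2.1 had 5629 and 2848 in Col-0 rapamycin and 3927 and 1826 in RiD rapamycin, a log2 difference of -0.58 (adjusted p = 0.000452). For LHCB2.2 the same difference was -0.89 (adjusted p = 3.86e-05). The difference between the rapamycin and the mock line effects was -1.64, adjusted p = 1.74e-06 for LHCB2.1 and -1.80, adjusted p = 3.41e-06 for LHCB2.2, although these loci were named for their mock difference. LHCB3 (-0.38, adjusted p = 0.00531) and LHB1B1 (-0.42, adjusted p = 0.00545) were lower too, and LHCB1.1 was not called (0.014, adjusted p = 0.934). In RiD brassinolide LHCB1.1 had 790.4 and 493 against 394 and 207 in Col-0 rapamycin, higher by 1.13 (adjusted p = 4.03e-06), and LHB1B1 was higher by 0.54 (adjusted p = 0.00168). LHCB2.1 (0.27, adjusted p = 0.0778), LHCB2.2 (0.005, adjusted p = 0.988) and LHCB3 (0.15, adjusted p = 0.29) were not called there.

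The lists of salicylate response and of immune receptors gave 1 call, which was higher in RiD mock, beside 0.228% of all tested loci. WRKY70, a transcription factor of salicylate signalling, had 82.9 and 75.5 normalized counts in Col-0 mock and 152 and 119 in RiD mock (log2 difference 0.76, SE 0.14, adjusted p = 0.0323). WRKY70 was the only called member of 16 on the salicylate list, whose median was 0.11, and no gene of 21 tested for pattern receptors and immune response passed. PR1, a common salicylate marker, had 47.0 and 52.8 normalized counts in Col-0 mock and 34.8 and 36.7 in RiD mock (log2 difference -0.47, SE 0.51, adjusted p = 0.774). Off these lists, EARLI1, a proline-rich protein of the lipid transfer family, had 89.9 and 67.4 normalized counts in Col-0 mock and 273 and 180.4 in RiD mock (log2 difference 1.50, SE 0.14, adjusted p = 0.000141). DMR6, an enzyme that degrades salicylate, had 494 and 691 normalized counts in Col-0 mock and 845 and 1134 in RiD mock (log2 difference 0.74, SE 0.11, adjusted p = 0.0066). The lines did not overlap in the mock libraries for WRKY70, EARLI1 and DMR6, on the values that made their calls. In RiD rapamycin EARLI1 reached 1322 and 1223 and WRKY70 1033 and 1059, against 69.8 and 48.4 and 76.6 and 69.6 in Col-0 rapamycin. EARLI1, DMR6 and PR1 were picked after their values were seen.

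Among the 12 largest increases were also loci with little annotation. AT2G44220 had 0 and 1.47 normalized counts in Col-0 mock and 19.4 and 25.6 in RiD mock (log2 difference 3.89, SE 0.48, adjusted p = 0.00127). AT2G33160 had 16.2 and 19.8 normalized counts in Col-0 mock and 86.5 and 88.8 in RiD mock (log2 difference 2.23, SE 0.24, adjusted p = 0.000376). Both were also higher in all 4 ligand-treated RiD libraries than in any Col-0 library. GSTF14, of the glutathione transferase family, had 16.4 and 16.9 normalized counts in Col-0 mock and 50.3 and 51.9 in RiD mock (log2 difference 1.56, SE 0.22, adjusted p = 0.00365). AT3G05950 had 24.1 and 21.3 normalized counts in Col-0 mock and 143 and 107 in RiD mock (log2 difference 2.3996, SE 0.16, adjusted p = 3.24e-06), but Col-0 rapamycin held 118 and 82.4, close to RiD mock.

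Of 361 tested loci annotated as pseudogene 4 were called (1.11%), all higher, and of 140 annotated as ncRNA 2 were higher and 1 lower (2.14%), beside 0.356% of all loci. None of 246 annotated as transcribed pseudogene and none of 201 annotated as lncRNA was called. These types were counted after the calls were seen. SADHU3-2, a member of the Sadhu family of retroelements annotated as a pseudogene, had 94.8 and 58.7 normalized counts in Col-0 mock and 322 and 173 in RiD mock (log2 difference 1.65, SE 0.18, adjusted p = 0.000391). The pseudogene AT3G32925 had 11.2 and 21.3 normalized counts in Col-0 mock and 54.2 and 44.8 in RiD mock (log2 difference 1.61, SE 0.29, adjusted p = 0.0291). Both RiD mock libraries lay above both Col-0 mock ones for each, on the values that made their calls. The pseudogene AT5G33395 had 126 and 92.4 normalized counts in Col-0 mock and 316 and 263 in RiD mock (log2 difference 1.41, SE 0.15, adjusted p = 0.000349). The non-coding RNA AT4G04223 had 109.7 and 96.7 normalized counts in Col-0 mock and 295 and 223 in RiD mock (log2 difference 1.31, SE 0.14, adjusted p = 0.000313). These 4 were higher in every RiD library than in every Col-0 library of the series, beside 2.56% of all tested loci. The mock libraries that chose them are among these. The pseudogene AT5G35935 had 347 and 391 normalized counts in Col-0 mock and 651 and 881 in RiD mock (log2 difference 1.04, SE 0.11, adjusted p = 0.000349), but 433 and 608 in RiD rapamycin against 353 and 508 in Col-0 rapamycin. The non-coding RNA AT1G67105 had 339 and 191 normalized counts in Col-0 mock and 647 and 375 in RiD mock (log2 difference 0.95, SE 0.12, adjusted p = 0.00192), but 428 and 239 in RiD rapamycin against 436 and 199 in Col-0 rapamycin. Across the series the lines overlapped for both. The non-coding RNA AT2G01422 went the other way, with 991 and 400.3 normalized counts in Col-0 mock and 189.5 and 90.2 in RiD mock (log2 difference -2.26, SE 0.22, adjusted p = 0.000391), and stood at 89.4 to 154 in the ligand-treated RiD libraries against 808 and 488 in Col-0 rapamycin. AT5G33395, AT4G04223, AT5G35935 and AT1G67105 were picked after their values were seen. None of 16 gene silencing genes was called, with a median of 0.076.

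The largest decreases were in a neighbouring pair of cell wall genes, with no annotated locus between them. PELPK2 had 20.6 and 10.99 normalized counts in Col-0 mock and 1.29 and 0 in RiD mock (log2 difference -3.41, SE 0.50, adjusted p = 0.0062). PELPK1, which encodes a wall protein with repeated proline, glutamate, leucine and lysine residues, had 241 and 207 normalized counts in Col-0 mock and 45.2 and 23.2 in RiD mock (log2 difference -2.75, SE 0.18, adjusted p = 3.98e-06). Col-0 mock lay above RiD mock for both, but also above Col-0 rapamycin, where PELPK1 had 39.0 and 34.1 and PELPK2 1.34 and 4.31. Between RiD mock and Col-0 rapamycin the log2 difference of PELPK1 was -0.17 (adjusted p = 0.702), and was not called. In RiD rapamycin PELPK1 reached 3908 and 4023.

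Of the remaining loci among the 12 largest decreases, MLP34, of the major latex protein family, had 1287 and 1241 normalized counts in Col-0 mock and 641 and 545 in RiD mock (log2 difference -1.09, SE 0.10, adjusted p = 0.000126), and Col-0 rapamycin held 1096 and 1076. AT4G22485 had 326 and 571 normalized counts in Col-0 mock and 111 and 182 in RiD mock (log2 difference -1.59, SE 0.29, adjusted p = 0.0313). AT3G05727 had 309.8 and 123 normalized counts in Col-0 mock and 74.6 and 46.9 in RiD mock (log2 difference -1.71, SE 0.34, adjusted p = 0.0479). In the ligand-treated RiD libraries both were at 0 to 4.17, against 434 and 593 and 362 and 158 in Col-0 rapamycin. CLE6, a small signalling peptide, had 137 and 135 normalized counts in Col-0 mock and 73.4 and 56.5 in RiD mock (log2 difference -1.07, SE 0.18, adjusted p = 0.016). FTM1, a desaturase of the acyl carrier protein type, had 210.2 and 145 normalized counts in Col-0 mock and 99.3 and 76.8 in RiD mock (log2 difference -0.99, SE 0.19, adjusted p = 0.0388). AT2G27402 had 194 and 114 normalized counts in Col-0 mock and 72.2 and 42.3 in RiD mock (log2 difference -1.41, SE 0.23, adjusted p = 0.0128). AT4G36610 and AT4G38080 were low throughout the mock libraries, with 2.58 and 2.398 and 9.02 and 9.57 in RiD mock against 17.58 and 10.3 and 16.6 and 28.6 in Col-0 mock (adjusted p = 0.0312 and 0.0391). For every locus of this paragraph both Col-0 mock libraries lay above both RiD mock libraries. These values also chose the loci, so the separation adds no support. Against Col-0 rapamycin, RiD mock differed by -1.17 for CLE6 (adjusted p = 0.00569), -0.80 for FTM1 (0.0655), -0.75 for AT4G36610 (0.343) and -0.19 for AT4G38080 (0.719).

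Further lists of growth genes and of low-oxygen genes gave single calls or none, beside 0.228% of all tested loci called higher and 0.129% lower. Of 17 Aux/IAA and GH3 genes 1 was lower, IAA17 (AXR3), a repressor of auxin response, with 6473 and 4386 normalized counts in Col-0 mock and 4833 and 2802 in RiD mock (log2 difference -0.53, SE 0.096, adjusted p = 0.0293). In RiD rapamycin against Col-0 rapamycin IAA17 was higher, by 0.54 (adjusted p = 0.000274). IAA19 had 1151 and 913 normalized counts in Col-0 mock and 858 and 554 in RiD mock, just short of the threshold (log2 difference -0.57, SE 0.12, adjusted p = 0.0518). Of 13 expansins, which loosen cell walls, 1 was higher, EXPA8, with 577 and 666 normalized counts in Col-0 mock and 798 and 958 in RiD mock (log2 difference 0.50, SE 0.095, adjusted p = 0.0391). EXPA8 had 2608 and 3300 in RiD rapamycin and 2553 and 3175 in RiD brassinolide, against 482 and 509 in Col-0 rapamycin. None of 19 SAUR genes, a family of early growth genes, was called: 16 had negative log2 differences and the median was -0.43. SAUR9 had 50.6 and 33.7 normalized counts in Col-0 mock and 28.4 and 28.8 in RiD mock (log2 difference -0.52, SE 0.21, adjusted p = 0.376), and SAUR24 the largest difference, -1.19 (adjusted p = 0.475). Of 11 low-oxygen genes 1 was lower, the haemoglobin HB1, with 1082 and 765 normalized counts in Col-0 mock and 661 and 495 in RiD mock (log2 difference -0.67, SE 0.098, adjusted p = 0.0062).

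The remaining lists gave no call. Their medians were 0.058 for 10 TOR and FKBP genes, -0.18 for 16 xyloglucan endotransglucosylases, -0.10 for 18 genes of unfolded protein and heat response, 0.11 for 16 clock genes and 0.02 for 15 of abscisic acid, cold and drought. They were -0.12 for 9 nitrate genes, -0.19 for 8 glucosinolate genes, -0.087 for 10 flavonoid genes, -0.16 for 18 ribosome and nucleolus genes, 0.012 for 23 cell division genes and 0.13 for 18 of starvation and autophagy. The target kinase of rapamycin, TOR, had 951 and 2147 normalized counts in Col-0 mock and 1006 and 2958 in RiD mock (log2 difference 0.27, SE 0.21, adjusted p = 0.687), and the numbers differed more than the lines.

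The member with the largest difference is given for each of these lists, with its adjusted p. It was -0.28 for FKBP12 (0.327), -2.91 for XTH25 (0.287), 0.93 for the chaperone BIP3 (0.518) and 0.98 for the clock gene PRR9 (0.274). It was -1.89 for the cold gene COR15A (0.34), -1.30 for the nitrate transporter NRT2.1 (0.375), -0.45 for MAM1 of glucosinolate synthesis (0.811) and -0.97 for chalcone synthase (0.614). RPL24A gave -0.43 (0.188), the cyclin CYCB1;1 -0.43 (0.636) and the starvation gene DIN11 -0.60 (0.273). In the immune and silencing lists above it was 0.95 for the kinase FRK1 (0.593) and -0.46 for AGO5 (0.718). COR15A, NRT2.1, FRK1 and MAM1 stood at no more than 5.02 normalized counts in any mock library.

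**Figure D4:**
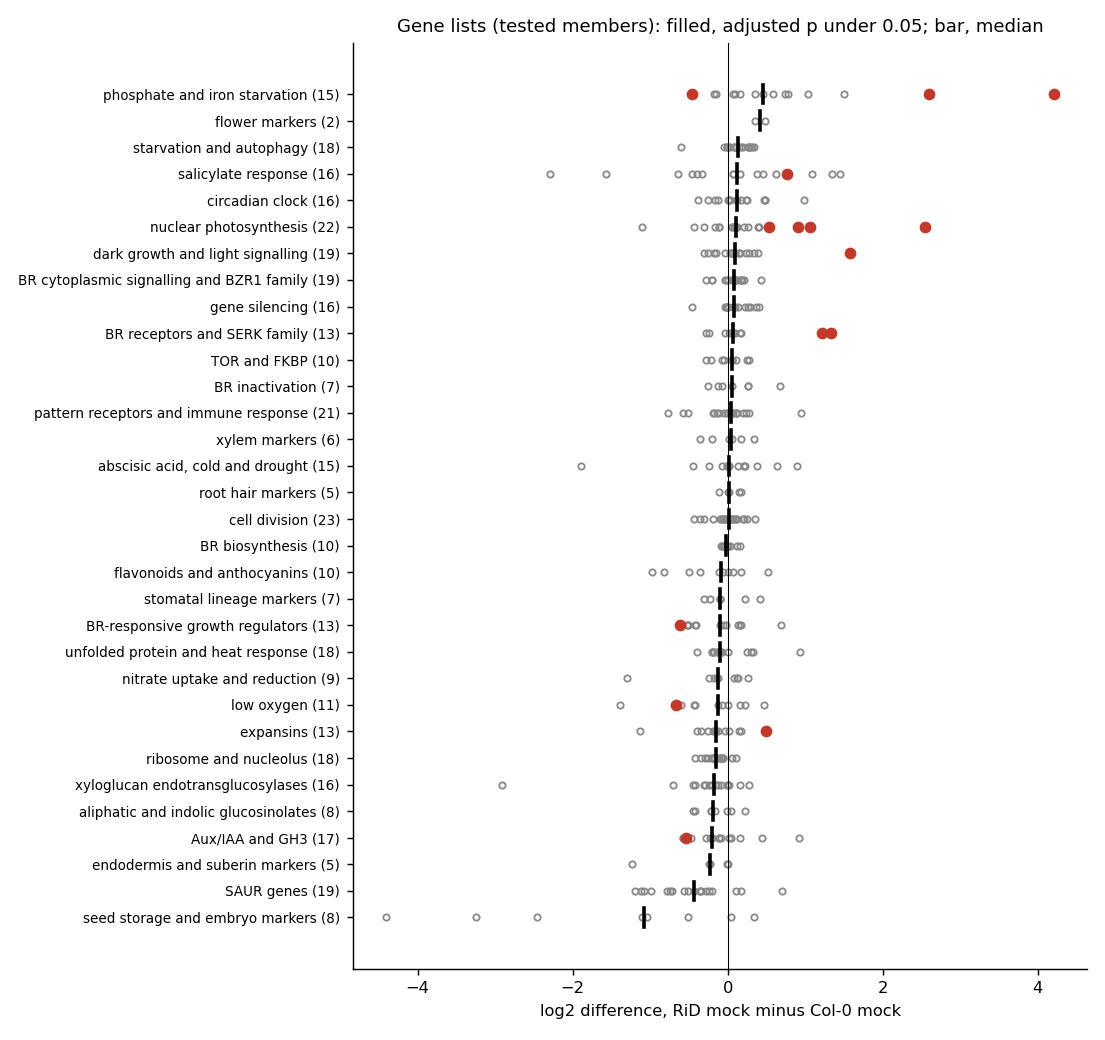
Log2 difference of RiD mock minus Col-0 mock for each tested member of 32 gene lists, with the number tested in parentheses; filled red points passed the test and the black bar is the list's median. Called members are few, and SAUR genes (median -0.43) and seed storage markers (median -1.08) lie mostly below 0 with none called.

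Cell type markers gave no call, in whole seedlings that held root hair, endodermis, xylem and stomatal markers. The summed root hair markers were 160.8 and 279 in Col-0 mock and 210.3 and 251 in RiD mock, and those of the stomatal lineage 616 and 634 against 611 and 678. The sums of endodermis and suberin markers were 3364 and 4304 against 3577 and 3435, and of xylem markers 2548 and 2581 against 2187 and 2471. The largest differences were 0.17 for RHD6 (0.921), -1.24 for GPAT5 (0.226), -0.36 for XCP1 (0.459) and 0.42 for TMM (0.34), with adjusted p in parentheses. Flower markers summed to at most 25.8 in a mock library. AP3 was too low to be tested and SEP3 gave 0.48 (0.789).

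The sum of seed storage and embryo markers was lower in RiD mock within each number and overlapped between the lines. It was 3369.8 and 11739.7 in Col-0 mock and 139 and 5141 in RiD mock, and the library RiD mock 1 was the lowest of the 10. The storage globulin CRA1 had 1762 and 7122 normalized counts in Col-0 mock and 10.3 and 2462 in RiD mock (log2 difference -4.41, SE 2.43, adjusted p = 0.586). None of the 8 was called. Without RiD mock 1, 72 loci were called between the lines, 45 of them among the 83, and the part of seed remnants in the differences above was not tested.

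For some called loci Col-0 mock stood apart from Col-0 rapamycin as well. Col-0 rapamycin against Col-0 mock called 43 loci (0.185%). AT5G19890 had 232 and 235 normalized counts in Col-0 mock and 694 and 472 in RiD mock but 765 and 437 in Col-0 rapamycin, and AT5G51190 25.3 and 35.2 normalized counts in Col-0 mock and 59.3 and 96.6 in RiD mock but 79.2 and 67.9 in Col-0 rapamycin. For both, Col-0 mock was the lowest group. These 2 were picked after their values were seen.

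The 83 loci were also followed in RiD rapamycin against Col-0 rapamycin, which contrasts other libraries and called 52.4% of all loci. Its spread and number term came from the same fit over all 10 libraries that made the mock calls. Loci called for a small spread are thus more easily called here too, and the counts below are not an independent test. Of the 53 higher loci, 42 were called higher there too, where 27.1% of all loci were, 5 were called lower and 6 were not called. Of the 30 lower loci, 14 were called lower, where 25.3% of all loci were, 14 were called higher and 2 were not called. That comparison called 6314 loci higher and 5897 lower as deposited, and 5111 and 7562 with library totals made equal. In RiD brassinolide against Col-0 rapamycin, where line and treatment differ together and 33.9% of all loci were called, the counts were 44 of 53 called higher (18.1% of all loci), 1 called lower and 8 not called, and 14 of 30 called lower (15.8%), 11 called higher and 5 not called.

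**Figure D5:**
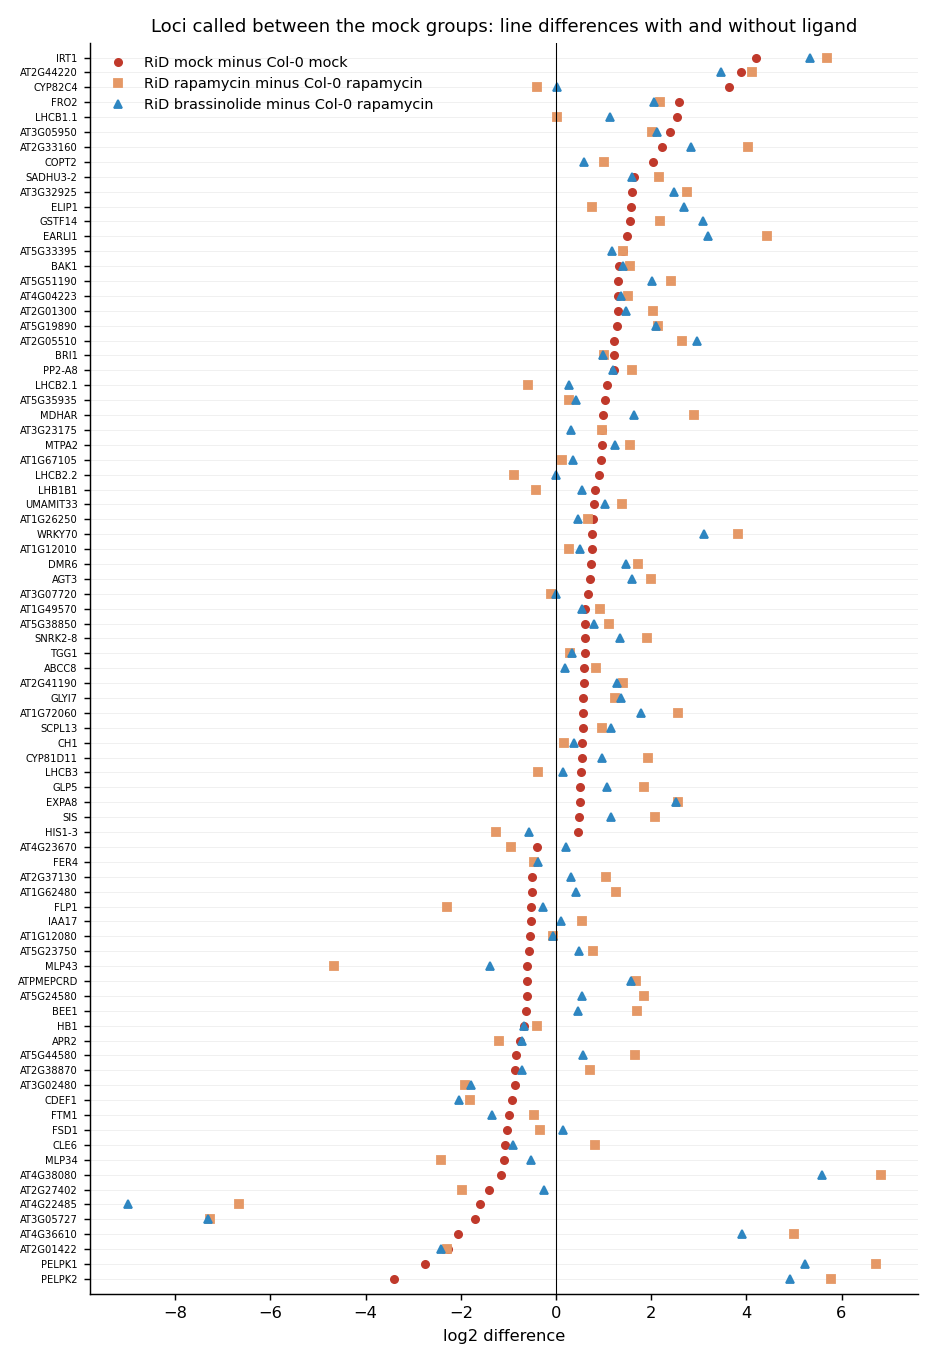
Log2 differences of the 83 loci called between the mock groups, sorted by RiD mock minus Col-0 mock (red circles), with RiD rapamycin minus Col-0 rapamycin (orange squares) and RiD brassinolide minus Col-0 rapamycin (blue triangles). Most higher loci keep their sign with ligand (42 of 53 called higher with rapamycin), while the lower loci divide (14 called lower, 14 higher).

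Over the whole series, 29 of the 53 higher loci lay higher in all 6 RiD libraries than in all 4 Col-0 ones, beside 2.56% of tested loci, and 9 of the 30 lower loci lay lower in all 6, beside 2.25%. These libraries include those that chose the loci. When each of the 10 libraries was left out in turn, 14 higher and 3 lower loci were called every time. The 14 were BAK1, BRI1, FRO2, LHCB1.1, LHCB2.1, EARLI1, SADHU3-2, AT5G33395, AT4G04223, AT5G35935, AT2G44220, AT2G33160, AT3G05950 and AT2G05510. The 3 were PELPK1, MLP34 and AT2G01422. IRT1 was called in 9 of the 10 such fits. CYP82C4, COPT2, ELIP1, CH1, HB1 and AT4G22485 were called in 6, and in no fit that left out a mock library. Of the 83 loci, 37 (20 higher, 17 lower) were called in no more than 5. Among the loci named here WRKY70, EXPA8, HIS1-3, FER4, AT4G36610 and AT4G38080 were called in 2, BEE1 and FTM1 in 3, LHCB3, MTPA2, AT3G32925, SNRK2-8, TGG1 and APR2 in 4, and IAA17 and AT3G05727 in 5.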

How the data were processed

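Poly(A) RNA of whole seedlings was sequenced after a stranded TruSeq preparation, per the labels' protocols. The authors deposited a signal table of normalized counts, 1 value per transcript and library. Salmon and DESeq2 are named in the submitters' processing notes; their versions, the genome build, the annotation and whether strand was used are not stated. Values of 40812 transcripts were summed over 32753 loci, of which 705 had no entry in the TAIR10.1 reference table that gave the symbols. Whole reads could not be recovered for every column (51.8% of low values in Col-0 mock 1 lay within 0.1 reads of a whole number), so no count test was run.

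The scale was log2(sum + 1), which understates differences at low values. A locus was tested where 2 or more libraries held at least 1 normalized count, which left 23285. They were fitted with limma 3.58.1 (R 4.3.3, trend and robust moderation) over all 10 libraries, with the 5 groups and the replicate number as terms and 4 residual degrees of freedom. An adjusted p (Benjamini-Hochberg over all tested loci) under 0.05 is a call, and SE and 95% intervals come from that fit. The code was tested on simulated data.

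The replicate number was made a term because the comparison was set up with libraries paired by number. It was chosen with earlier results of these data known, in which BAK1 and BRI1 passed the threshold with that term and not without it, so their calls are not independent of the choice. What the number means is not stated in the labels, and the pairing rests on the correlations between same-numbered libraries. Numbers also differ in depth. No source says that libraries of a group are separate plantings, and the p-values cover only the spread seen between them, which may be technical.

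The comparison, the 32 lists (446 members) and the naming rule were likewise chosen with earlier results known. Named were the receptor list, DWF4, CPD, BR6OX2, SAUR9 and TOR, the 12 largest calls in each direction with a mock group mean of at least 10, and per list up to 4 called members or, with none called, the member with the largest difference. A few list entries were corrected or dropped for ambiguous symbols after the files were opened. Alternatives numbered 23.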

Additional observations from a re-analysis of the deposited data

How the results depend on the processing

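The count of 83 called loci (53 higher, 30 lower) moved with many settings. Without the replicate block 0 loci were called in either direction, and BAK1 kept its log2 difference of 1.33 with an adjusted p of 0.102 and BRI1 its 1.22 with an adjusted p of 1. With the mock libraries alone 0 were called in either direction, with or without the replicate block, and BAK1 (1.33, adjusted p = 0.136 and 1) and BRI1 (1.22, adjusted p = 0.199 and 1) did not pass. The fits of the mock libraries alone have fewer residual degrees of freedom. Without trend and robust moderation 8 were called (6 higher, 2 lower), 4 of them among the 83, and BRI1 did not pass (1.22, adjusted p = 0.128). Without the filter 47 were called (34 and 13), and with the most abundant transcript per locus 35 (27 and 8). The fit over 29542 single transcripts called 6 (3 higher and 3 lower). With 0.1 added in place of 1, lower calls numbered 18. With all Col-0 libraries as control 201 were called (117 and 84). With Col-0 rapamycin as control, an alternative chosen after seeing the data, 231 were called (170 and 61). The cause of these shifts was not tested. Adding 5, a mean of at least 10, equal totals and quantile normalization gave 78 to 88.

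Leaving out 1 library gave 25 to 336 calls (21 to 182 higher, 4 to 154 lower). It was 25 without Col-0 mock 1, 35 without Col-0 mock 2, 41 without RiD mock 2 and 54 without RiD brassinolide 1, and 328 and 336 without Col-0 rapamycin 1 and 2; lower calls fell to 16 and 19 without RiD brassinolide 1 and 2. A lone library left in a group is assumed to vary like the others. BAK1 and BRI1 passed in each of these 10 fits, at 1.27 to 1.38 and 1.06 to 1.37. RiD rapamycin against Col-0 rapamycin called 12211 loci and 6143 without the replicate block, and RiD brassinolide against Col-0 rapamycin 7889 and 2108, with 4454 to 7675 in fits without 1 library. No locus named by the naming rule changed sign with a call. With Col-0 rapamycin as control, 2 called loci picked after their values were seen took the opposite sign and were not called. They were SNRK2-8 (-0.034, adjusted p = 0.923) and AT5G19890 (-0.016, adjusted p = 0.991). Counts of list members moved in 123 of 736 cases, of which 85 went to 0. Depth limits loci whose counts are near the value of 3 reads, among them CYP82C4, AT2G44220 and PELPK2.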

Other observations

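Further loci called between RiD mock and Col-0 mock, picked after their values were seen, lay in other parts of metabolism. CDEF1, a cutinase, had 5414 and 4863 normalized counts in Col-0 mock and 2672 and 2704 in RiD mock (log2 difference -0.93, SE 0.12, adjusted p = 0.00156), and was also lower in the ligand-treated RiD libraries, with 1216 and 1288 in RiD rapamycin against 5201 and 3727 in Col-0 rapamycin. APR2, the reductase that commits sulfate to assimilation, had 685 and 495 normalized counts in Col-0 mock and 436 and 275 in RiD mock (log2 difference -0.75, SE 0.15, adjusted p = 0.0467). CDEF1 was lower in all 6 RiD libraries than in all 4 Col-0 libraries of the series, beside 2.25% of tested loci. The lines overlapped for APR2.

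TGG1, a myrosinase that breaks down glucosinolates, had 11022 and 15399.9 normalized counts in Col-0 mock and 16229 and 24068 in RiD mock (log2 difference 0.60, SE 0.11, adjusted p = 0.034), while 8 tested glucosinolate synthesis genes gave no call. SNRK2-8, a kinase of osmotic stress signalling, had 376 and 514 normalized counts in Col-0 mock and 595 and 753 in RiD mock (log2 difference 0.60, SE 0.12, adjusted p = 0.0419), and Col-0 rapamycin stood at 636 and 738, close to RiD mock. HIS1-3, a linker histone variant, had 3849 and 2659.9 normalized counts in Col-0 mock and 4992 and 3942 in RiD mock (log2 difference 0.47, SE 0.09, adjusted p = 0.0388), and was at 1529 and 1187 in RiD rapamycin against 3748 and 2784 in Col-0 rapamycin, a difference in the other direction (-1.26, adjusted p = 3.12e-08).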
